A study of Homo sapiens with 6 samples.

Results

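Integrins are the receptors by which leukocytes hold on to other cells and to the extracellular matrix, and 10 genes of this adhesion system were followed in the AML cell line THP1. They are the α chains ITGAL, ITGAM, ITGAX, ITGA4 and ITGA5, the β chains ITGB1, ITGB2 and ITGB7, and the adhesion molecules ICAM1 and PECAM1. The genes were chosen by name, each matched 1 entry, and they are 10 of the 26485 genes of the deposited count table. THP1 is an established human acute monocytic leukemia line. Cells were exposed for 6 h either to Withaferin A (WFA), a steroidal lactone from a plant, or to DMSO, the solvent that served as the control, and RNA-seq was performed on 3 libraries per group from independent experiments. Both groups are the same unmodified line in the same culture medium, and a single cell line stands here for the disease. The sample labels give the WFA concentration as 1 mM. The study's methods and figure legends give 1 μM for this same RNA-seq experiment, so the unit in the labels conflicts with the published dose. The study asked how WFA changes gene expression in AML cells in which it lowers the transcription factor c-MYB.

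An integrin is a pair of 1 α and 1 β chain, and neither chain reaches the cell surface efficiently without a partner. The β chain ITGB2 (CD18) pairs with ITGAL (CD11a) to form LFA-1, with ITGAM (CD11b) to form Mac-1 and with ITGAX (CD11c) to form the complement receptor p150,95, and these are the integrins by which leukocytes bind ICAM1 on other cells. ITGA4 (CD49d) pairs with ITGB1 to form VLA-4, a receptor for VCAM1 and fibronectin that holds hematopoietic and leukemic cells in the bone marrow, and with ITGB7 to form the gut homing receptor that binds MADCAM1. ITGA5 (CD49e) pairs with ITGB1 to form the classical fibronectin receptor. PECAM1 (CD31) binds itself between neighbouring cells and carries inhibitory signalling motifs.

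Of the 10 genes, ITGAX rose and ITGA4 and PECAM1 fell with WFA, in edgeR's quasi-likelihood test with p adjusted by Benjamini-Hochberg over all genes tested. ITGA4 was lower by 2.82-fold and was the member with the largest change. ITGAX was higher by 1.40-fold, and PECAM1 was at 0.826 of its DMSO level. The other 7, including all 3 β chains, did not pass the threshold of 0.05. Of the 12854 genes tested, 25.8% were called higher and 24.7% lower, so 1 of 10 higher and 2 of 10 lower is no more than the share among all genes. The median log2 fold change was 0.07 over the 10 genes and 0.02 over all genes tested. All 10 genes passed the filter on low counts.

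Same-numbered DMSO and WFA libraries share a string of digits in their deposited column names, and the study reports independent experiments. They also deviated from their group means together. The fit was therefore also made with the replicate number as a block. In this paired fit, 2 members were called higher, namely ITGAX and ITGA5, and 3 lower, namely ITGA4, PECAM1 and ITGAL. Among all genes, 30.2% were then called higher and 28.8% lower. The paired fit has 2 residual degrees of freedom against 4, and edgeR estimated infinite prior degrees of freedom in it, against 10.8 without the block. With an infinite prior the spread used for a gene comes from the trend over all genes. A p from the paired fit thus does not measure how far the 3 pairs of that gene differ.

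Total counts per library ranged from 11006035 to 13872810. Levels are in CPM, which is the count scaled with TMM factors to a library of 1000000 reads, a measure that can be compared between libraries for 1 gene. These are bulk samples, so fewer cells expressing a gene and less RNA per cell cannot be told apart. Of 12 markers of monocytic cells, 10 were tested, and LYZ had the highest level. Their summed level was 2497 to 3055 CPM with DMSO and 2283 to 3092 with WFA. ELANE, the neutrophil elastase of granulocyte precursors, had no count in any library. Within the monocytic list 2 of the 10 tested genes rose and 4 fell with WFA. These are 20% and 40%, beside 25.8% higher and 24.7% lower among all genes tested. Log2 fold changes on this list ran from -1.22 to 0.43, with a median of -0.05. CD14 was among the genes that fell, from a mean of 5.72 ± 1.89 CPM to 2.45 ± 0.466 CPM (SD, n = 3 each). The part of these marker changes in the integrin results was not tested. Markers of erythroid cells had no count, and the summed levels of T and NK cell, B cell, platelet and endothelial markers did not exceed 5.72 CPM in any library.

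To compare genes with each other, counts were divided by the length of the longest annotated transcript and scaled to the same total in each library. No TMM factor enters this scale, so differences between the groups on it can depart from those in CPM. The mean of ITGB2, for instance, was 1081 CPM with DMSO and 1132 CPM with WFA. On this per-length scale ITGB2 was the highest member, at 720 ± 46.2 with DMSO and 690 ± 29 with WFA (SD, n = 3 each). With DMSO it was followed by PECAM1 at 178 ± 13.0, ITGA5 at 177 ± 4.47, ITGA4 at 174 ± 27.8 and ITGAL at 161 ± 17.3 (SD, n = 3 each), and each of these overlapped the next in the order. ITGB1 lay below them at 79.1 ± 1.93 and did not overlap ITGAL. ITGAM at 41.4 ± 10.4, ITGAX at 38.4 ± 6.26 and ITGB7 at 29.9 ± 3.70 again overlapped their neighbours, and ICAM1 was lowest at 4.92 ± 0.575 (SD, n = 3 each). With WFA the per-length level of ITGA4 was 56.2 ± 3.93 (SD, n = 3). It moved from position 4 to position 6, below all libraries of ITGB1 and overlapping ITGAX, which stood at 49.0 ± 5.13 (SD, n = 3).

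**Figure D1:**
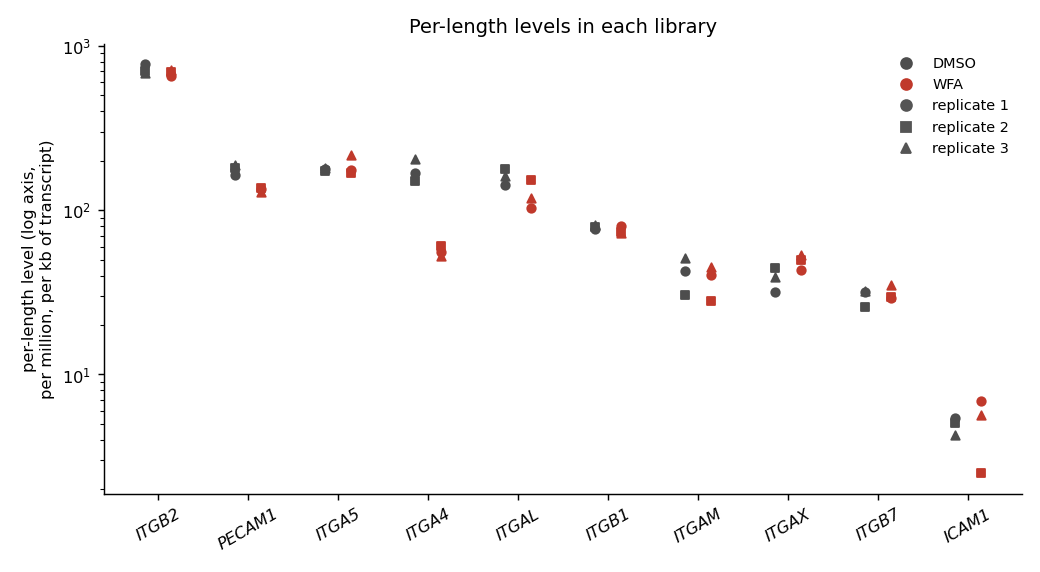
Per-length level of each gene in each library, with the gene on the horizontal axis and counts per kb of the longest transcript, scaled to the same total, on a logarithmic vertical axis. Grey symbols are DMSO, red symbols WFA, and the shape gives the replicate. ITGB2 lies above every other gene in all libraries, ICAM1 lies lowest, and the WFA libraries of ITGA4 lie between 52.3 and 60.2 against 150 to 205 with DMSO.

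The ITGA4 gene lies on chromosome 2 (GRCh38, 181457202 to 181536187, plus strand) and has 28 exonic blocks in the GENCODE 29 annotation. Its promoter and that of ITGA5 are shown because these α chains share the partner ITGB1 and differed in their response, and because c-MYB is the factor the study concerns. Promoter sequences of RefSeq (GRCh38.p14, 250 bases before to 50 after the start site) matched 6 of the 10 genes, namely ITGAM, ITGA4, ITGA5, ITGB1, ITGB7 and ICAM1. Capitals mark matches to the MYB core AACNG on either strand. The ITGA4 window is chr2:181457136-181457435 on the plus strand and the ITGA5 window is chr12:54419217-54419516 on the minus strand, each written 5′ to 3′ along its gene.
ITGA4: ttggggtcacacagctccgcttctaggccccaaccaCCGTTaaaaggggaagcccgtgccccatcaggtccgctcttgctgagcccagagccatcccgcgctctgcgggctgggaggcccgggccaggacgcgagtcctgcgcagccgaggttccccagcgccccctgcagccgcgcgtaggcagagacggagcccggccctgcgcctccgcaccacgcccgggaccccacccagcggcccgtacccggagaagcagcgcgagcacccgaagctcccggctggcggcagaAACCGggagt
ITGA5: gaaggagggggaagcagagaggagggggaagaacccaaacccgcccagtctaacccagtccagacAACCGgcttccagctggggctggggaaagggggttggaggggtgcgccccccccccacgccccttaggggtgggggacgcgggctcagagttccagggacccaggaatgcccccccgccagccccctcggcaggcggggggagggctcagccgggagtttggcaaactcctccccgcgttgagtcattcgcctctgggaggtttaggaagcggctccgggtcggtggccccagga

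The ITGA4 window held 2 matches to the MYB core. These began at position -214, where the core lies on the opposite strand, and at position 41 downstream of the start. The ITGA5 window held 1 match, at position -185. Positions count from the start site used for each window. For both genes this site lies inside the gene bounds of the GENCODE annotation, so part of the bases before it is annotated gene. The MYB core was found in 5 of the 6 genes with a sequence, ITGB7 being the exception. It was found in 77.17% of all 35116 promoters of this length, so that a match is common. That share is per promoter, and ITGB1 had 2 promoters, both with a match. The PU.1 core GAGGAA, read on both strands, was found in ITGAM, ITGB7 and 1 of the 2 promoters of ITGB1, and in 27.85% of all promoters. The inverted HSF1 repeat GAANNTTC, which reads the same on both strands, was found in none of the 6 and in 6.77% of all promoters. No match of 1 motif overlapped a match of another. These matches describe letters, and binding was not measured.

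ITGA4, the α chain of VLA-4, was measured at 223, 204 and 256 CPM in DMSO replicates 1, 2 and 3, and at 80.3, 87.3 and 74.6 CPM in the WFA replicates. Every WFA library lay below every DMSO library, and the lowest DMSO value was more than 2 times the highest WFA value. The means were 228 ± 26.4 and 80.7 ± 6.35 CPM (SD, n = 3 each). On the log2 scale the fold change was -1.50 (standard error 0.10, 95% interval -1.71 to -1.28, edgeR adjusted p = 2.00e-08). By the size of its change ITGA4 ranked 723 among the 12854 genes tested, and it was the only member to change by more than 2-fold, as 668 of all genes tested did in the same direction.

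ITGA5, the other α chain that pairs with ITGB1, was measured at 281, 280 and 271 CPM with DMSO and at 299, 293 and 369 CPM with WFA. The groups did not overlap in CPM, and WFA replicate 3 stood above the other WFA libraries. On the per-length scale they overlapped, at 172 to 181 with DMSO and 169 to 217 with WFA. The log2 fold change of 0.21 (standard error 0.10, 95% interval -0.0012 to 0.42) did not pass the test, with an edgeR adjusted p of 0.0909. With the replicate block it was 0.20 and passed, with an edgeR adjusted p of 0.0224. By replicate number the log2 differences were 0.09, 0.06 and 0.45, a spread that the paired p does not measure. Without WFA replicate 3, and without the block, the log2 fold change was 0.097 (edgeR adjusted p = 0.394).

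ITGB1, the β chain shared by ITGA4 and ITGA5, was measured at 92.4, 97.2 and 91.7 CPM with DMSO and at 104, 96.0 and 94.2 CPM with WFA. The groups overlapped, and the log2 fold change was 0.06 (95% interval -0.11 to 0.24, edgeR adjusted p = 0.539). ITGB7, the second β partner of ITGA4, was measured at 28.8, 23.9 and 27.7 CPM with DMSO and at 28.8, 29.3 and 34.2 CPM with WFA. These groups overlapped as well, and the log2 fold change was 0.19 (95% interval -0.05 to 0.44, edgeR adjusted p = 0.179). Of the exonic bases of ITGB7 in GENCODE 29, 42.1% are shared with ZNF740 on the opposite strand. The library kit does not mark strand, so strand cannot tell which of these genes a read from the shared bases came from. How the counting treated such reads is not given in the sources used here. ZNF740 itself had between 543 and 628 counts per library and did not pass (log2 fold change 0.03, adjusted p = 0.811 from edgeR).

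**Figure D2:**
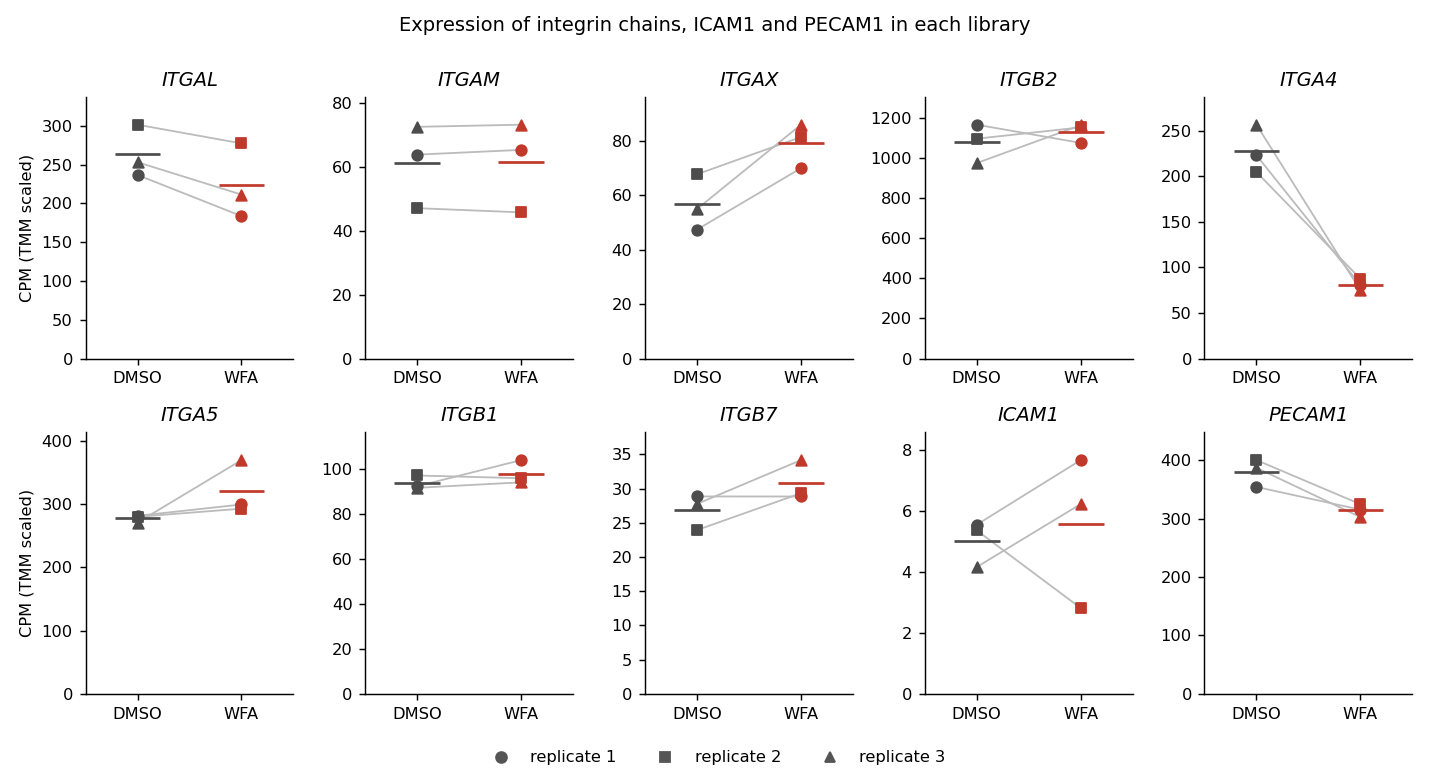
CPM after TMM scaling of each gene (vertical axis, starting at 0) in the DMSO and WFA libraries, with symbols for the replicate, horizontal bars for the group mean and grey lines joining libraries of the same replicate number. All 3 lines fall for ITGA4, PECAM1 and ITGAL and rise for ITGAX and ITGA5, whereas those of ITGAM are close to level.

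ITGB2, the β chain of the leukocyte integrins, was the most abundant member, at 1168, 1098 and 976 CPM with DMSO and 1077, 1154 and 1165 CPM with WFA. The groups overlapped, and DMSO replicates 1 and 3 marked the ends of the range. The log2 fold change was 0.07 (standard error 0.10, 95% interval -0.14 to 0.27, edgeR adjusted p = 0.591). Its antisense gene ITGB2-AS1, with 31 to 98 counts per library, fell by 0.97 on the log2 scale (edgeR adjusted p = 0.00719). The antisense gene shares 4.46% of the exonic bases of ITGB2, and without strand the reads of the shared part cannot be told apart.

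Of the α chains that pair with ITGB2, only ITGAX passed the test. ITGAX (chromosome 16, 31355134 to 31382997, plus strand, GRCh38), a marker of dendritic cells and macrophages, was measured at 47.3, 67.7 and 54.9 CPM with DMSO and at 69.9, 81.3 and 85.9 CPM with WFA. In CPM every WFA library lay above every DMSO library, although WFA replicate 1 and DMSO replicate 2 were close. On the per-length scale these 2 libraries changed order, at 43.5 and 44.3. The separation thus depended on the scaling. This was a log2 fold change of 0.48 (standard error 0.12, 95% interval 0.22 to 0.74, edgeR adjusted p = 0.00408).

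ITGAM, an α chain of monocytes and granulocytes that is used as a marker of myeloid differentiation, was measured at 63.9, 47.1 and 72.7 CPM with DMSO and at 65.4, 45.8 and 73.3 CPM with WFA. Replicate 2 was lowest and replicate 3 highest in both groups. Its log2 fold change was 0.0048 with a 95% interval of -0.34 to 0.35 (edgeR adjusted p = 0.983), so a change of the size seen for ITGAX lay outside this interval. The sign was negative with DESeq2's size factors and with total counts as the scaling.

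ITGAL, the α chain of LFA-1 that lymphocytes and monocytes share, was measured at 237, 301 and 253 CPM with DMSO and at 184, 277 and 211 CPM with WFA. The groups overlapped because replicate 2 was high in both, while each WFA library lay below the DMSO library of its own number. Its log2 fold change was -0.23 (standard error 0.13, 95% interval -0.52 to 0.05) and did not pass the test, with an edgeR adjusted p of 0.156. With the replicate block it was -0.25 and passed, with an edgeR adjusted p of 0.00409. It also passed without WFA replicate 2, at -0.42 (edgeR adjusted p = 0.00828), and with no filter on low counts (edgeR adjusted p = 0.0385).

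PECAM1 (chromosome 17, 64319415 to 64413776, minus strand, GRCh38) was measured at 354, 400 and 387 CPM with DMSO and at 315, 324 and 302 CPM with WFA. The groups did not overlap, and the means were 380 ± 23.7 and 314 ± 11.1 CPM (SD, n = 3 each). The log2 fold change was -0.28 (standard error 0.09, 95% interval -0.46 to -0.09, edgeR adjusted p = 0.0149). Without DMSO replicate 2, the highest library, it was -0.25 and no longer passed (edgeR adjusted p = 0.0563).

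ICAM1, the counter-receptor of LFA-1 and Mac-1 and a gene that inflammatory cytokines induce, was the least abundant member. It had 79, 68 and 50 counts with DMSO and 94, 35 and 67 with WFA, equal to 5.56, 5.37 and 4.17 CPM and to 7.68, 2.82 and 6.23 CPM. The WFA libraries held both the highest and the lowest value. ICAM1 had a log2 fold change of 0.14, and its 95% interval from -0.46 to 0.74 was the widest of the 10 genes (edgeR adjusted p = 0.707). Without WFA replicate 2, the lowest library, the log2 fold change was 0.47 and did not pass either (edgeR adjusted p = 0.0885).

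**Figure D3:**
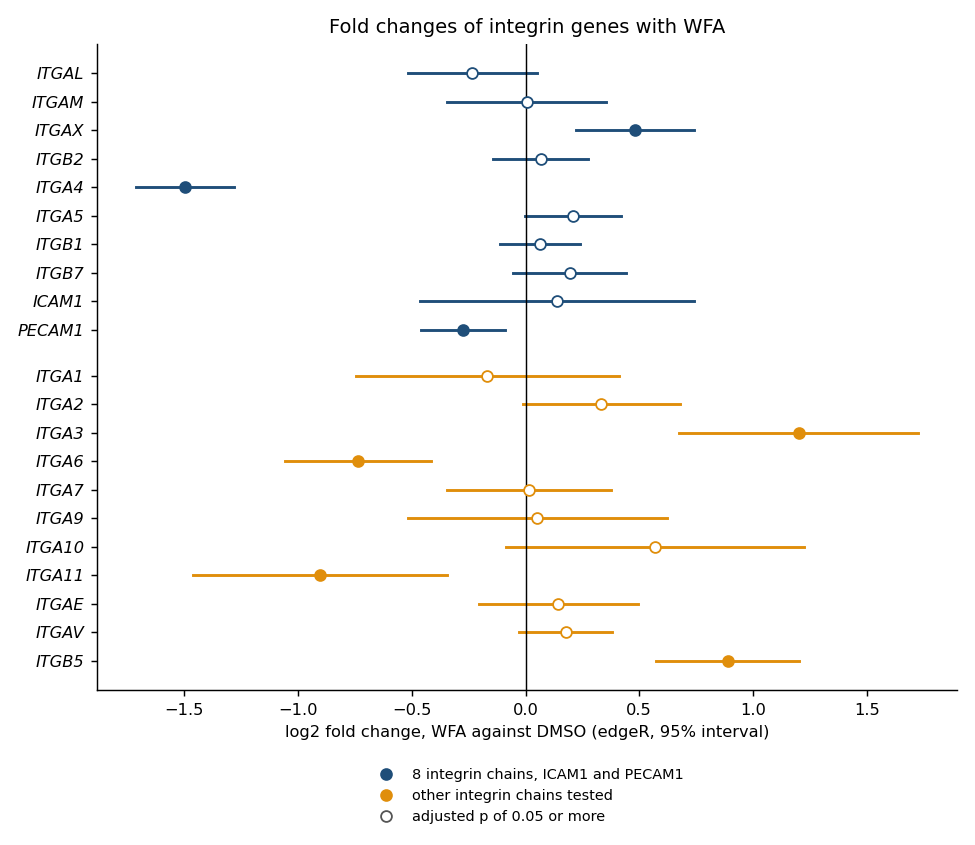
Log2 fold changes of WFA against DMSO (horizontal axis) with 95% intervals from edgeR for the 10 genes, in blue, and for 11 other integrin chains that were tested, in orange. Filled points passed the adjusted p threshold of 0.05. ITGA4 stands apart at -1.50, and the intervals of ITGB2, ITGB1 and ITGB7 include 0.

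The ratio of the counts of 2 chains within a library does not depend on how libraries are scaled. Ratios were formed for 10 pairs of genes and compared by an exact two-sided permutation test, which cannot give a p below 0.1 with 3 libraries against 3. The ratio of ITGA4 to ITGB1 was 2.41, 2.10 and 2.79 with DMSO and 0.772, 0.909 and 0.792 with WFA. ITGA4 reads thus outnumbered those of ITGB1 in every DMSO library and in no WFA library, a log2 difference of -1.56 (exact permutation p = 0.1, adjusted over the 10 ratios 0.25). The ratio of ITGA4 to ITGB7 went from 7.72, 8.54 and 9.24 to 2.78, 2.98 and 2.185, a log2 difference of -1.69 (exact permutation p = 0.1, adjusted 0.25). The ratio of ITGA5 to ITGB1 was 3.04, 2.88 and 2.95 with DMSO and 2.87, 3.05 and 3.92 with WFA, and the groups overlapped (log2 difference 0.14, exact permutation p = 0.5, adjusted 0.625).

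Among the partners of ITGB2, the ratio of ITGAL to ITGAX was 5.00, 4.45 and 4.61 with DMSO and 2.63, 3.41 and 2.46 with WFA. The groups did not overlap, and the log2 difference was -0.74 (exact permutation p = 0.1, adjusted 0.25). The ratio of ITGAX to ITGB2 was higher in every WFA library than in every DMSO library, with a log2 difference of 0.42 (exact permutation p = 0.1, adjusted 0.25). For ITGAL to ITGB2 the log2 difference was -0.32 and the groups overlapped (exact permutation p = 0.2, adjusted 0.4). The ratios of ITGAM to ITGB2, of ITGAL and ITGAM to each other, of ITGAM to ITGAX and of ICAM1 to ITGB2 overlapped between the groups as well, with log2 differences between -0.49 and -0.03. Taken by replicate number, the ratio was lower with WFA in all 3 pairs for ITGAL to ITGB2 (-0.25, -0.19 and -0.52), for ITGAL to ITGAM (-0.40, -0.08 and -0.27) and for ITGAM to ITGAX (-0.53, -0.31 and -0.63), on the log2 scale. An exact sign-flip permutation test of 3 pairs gave p = 0.25 for each, the smallest it can give.

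**Figure D4:**
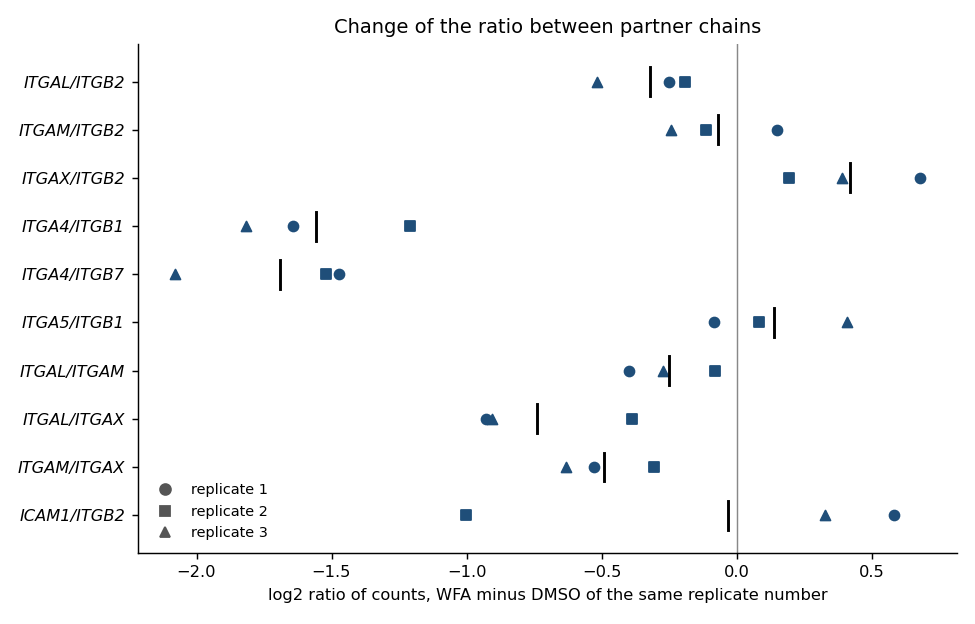
Change in the ratio of counts of 2 genes, as the log2 ratio in a WFA library minus that in the DMSO library of the same replicate number (horizontal axis), for 10 pairs of genes. Symbols are the 3 replicates and black bars the mean. Both ratios with ITGA4 in the numerator lie below -1.2 in all replicates, and that of ITGAX to ITGB2 lies above 0.

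Other chains of the integrin family were measured beside the 10 genes. Of 18 in the table, 11 were tested, of which 2 rose and 2 fell, with a median log2 fold change of 0.14. That is 18.2% in each direction, below the 25.8% higher and 24.7% lower among all genes tested. ITGA3, a laminin receptor chain, rose from 1.76, 1.66 and 1.58 CPM to 3.02, 4.19 and 4.37 CPM (log2 fold change 1.20, edgeR adjusted p = 8.73e-04). ITGB5, which pairs with ITGAV to bind vitronectin, rose from 13.6, 10.98 and 14.1 CPM to 23.9, 20.1 and 27.7 CPM (log2 fold change 0.89, edgeR adjusted p = 1.43e-04). ITGA6, also a laminin receptor chain and a partner of ITGB1, fell from 50.9, 36.5 and 38.4 CPM to 30.8, 23.1 and 21.5 CPM (log2 fold change -0.74, edgeR adjusted p = 8.23e-04). ITGA11, a collagen receptor chain, fell from a mean of 3.72 to 2.01 CPM (log2 fold change -0.90, edgeR adjusted p = 0.00968), a call that was lost without WFA replicate 1 (edgeR adjusted p = 0.0535). The α chains that pair with ITGB1 included ITGA3, which rose, and ITGA4, ITGA6 and ITGA11, which fell. The chains ITGA1, ITGA2, ITGA7, ITGA9, ITGA10, ITGAE and ITGAV did not pass, with log2 fold changes from -0.17 for ITGA1 to 0.57 for ITGA10. ITGAE, the other α partner of ITGB7, was at 0.14 (edgeR adjusted p = 0.487), and ITGAV, the most abundant of these other chains, at 0.18 (edgeR adjusted p = 0.137).

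Integrins are switched to their binding state from inside the cell, when talin and kindlins bind the β tail downstream of the GTPase RAP1. Of 36 tested activators and adaptors of integrin tails, 14 rose and 7 fell, with a median log2 fold change of 0.18. These shares of 38.9% higher and 19.4% lower stand beside 25.8% and 24.7% of all genes tested. DOK2, an adaptor of hematopoietic cells, rose from 87.9, 88.8 and 64.5 CPM to 299, 337 and 344 CPM (log2 fold change 2.02, edgeR adjusted p = 4.40e-09). SLC3A2, the heavy chain of an amino acid transporter that also binds β tails, rose by 1.33 on the log2 scale (edgeR adjusted p = 2.44e-06), and PXN, the focal adhesion adaptor paxillin, by 0.77 (edgeR adjusted p = 1.85e-05). RASSF5, the RAP1 effector that acts on LFA-1, fell from 79.6, 86.9 and 79.7 CPM to 42.5, 45.0 and 35.7 CPM (log2 fold change -0.996, edgeR adjusted p = 1.29e-06). FERMT1, a kindlin of epithelia, fell by 1.82 on the log2 scale from 9.39 to 2.65 CPM on average (edgeR adjusted p = 2.71e-06). After their values were seen, further genes of this list were added outside the rule for naming genes, so they do not stand for the list. TLN1, talin, differed by 0.06 on the log2 scale (edgeR adjusted p = 0.595), and FERMT3, the kindlin of blood cells, by -0.22 (edgeR adjusted p = 0.145), which passed with the replicate block (edgeR adjusted p = 0.0153).

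Signals from bound integrins run through SRC family kinases, SYK and focal adhesion kinases. Of 30 tested genes of this list 5 rose and 14 fell, with a median log2 fold change of -0.22. Called higher were 16.7% and lower 46.7%, against 25.8% and 24.7% of all genes tested. PTK2B, the focal adhesion kinase of leukocytes, fell from 220, 263 and 220 CPM to 100, 132 and 94.3 CPM (log2 fold change -1.11, edgeR adjusted p = 2.74e-06). PIK3CG, a leukocyte PI3-kinase, fell by 1.01 (edgeR adjusted p = 1.06e-06), and CSK, the kinase that holds SRC kinases inactive, by 0.84 (edgeR adjusted p = 4.69e-06), both on the log2 scale. BCAR1, a docking protein of focal adhesions, rose from 2.91 to 10.7 CPM on average (log2 fold change 1.87, edgeR adjusted p = 9.17e-07). CBLB, a ubiquitin ligase that limits signalling, rose by 1.08 on the log2 scale (edgeR adjusted p = 7.59e-06).

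Of 20 tested adhesion receptors and counter-receptors outside the integrin family 6 rose and 8 fell, with a median log2 fold change of -0.25. The shares were 30% higher and 40% lower, where all genes tested had 25.8% and 24.7%. SPN, the sialomucin CD43, fell from 559, 562 and 555 CPM to 344, 376 and 319 CPM (log2 fold change -0.69, edgeR adjusted p = 1.54e-05). ALCAM, a homophilic adhesion molecule, fell by 0.59 (edgeR adjusted p = 5.74e-04), and CD47, an integrin-associated protein, by 0.45 (edgeR adjusted p = 4.97e-04), both on the log2 scale. F11R, a junctional ligand of LFA-1, rose by 0.76 (edgeR adjusted p = 1.91e-05), and PVRL2, a nectin, by 0.63 (edgeR adjusted p = 1.24e-04). VCAM1, the counter-receptor of VLA-4 on other cells, had no count in any library.

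Matrix proteins, soluble ligands and ADAM proteases that bind integrins had 28 entries, of which 19 passed the filter on low counts and were tested. Of these, 11 rose and 0 fell by edgeR, with a median log2 fold change of 0.64. The 11 are 57.9% of the tested genes of this list, and among all genes tested 25.8% were higher and 24.7% lower. None of them had an unadjusted edgeR p under 0.05 in the lower direction, DESeq2 called 0 lower, and the fit with the replicate block called 1 lower. COL1A1, a collagen chain, rose from 3, 4 and 10 counts to 107, 106 and 135 (log2 fold change 4.47, edgeR adjusted p = 7.18e-08). LAMA5, a laminin chain, rose from 41, 22 and 29 counts to 191, 266 and 309 (log2 fold change 3.21, edgeR adjusted p = 6.44e-08), and THBS1, thrombospondin, from 43, 18 and 35 to 279, 244 and 150 (log2 fold change 2.93, edgeR adjusted p = 1.80e-07). These 3 genes were scarce in the DMSO libraries. COL1A1, with at most 10 counts there, passed the filter through its WFA libraries. A gene admitted in this way can hardly be called lower, yet it counts towards the 57.9%. The same filter was used for all genes tested. How much of the 57.9% rests on such genes was not tested. COL1A1 was also the gene with the highest level among the markers of fibroblasts and epithelia, whose summed level was 0.985 to 1.5 CPM with DMSO and 9.58 to 13.5 CPM with WFA.

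**Figure D5:**
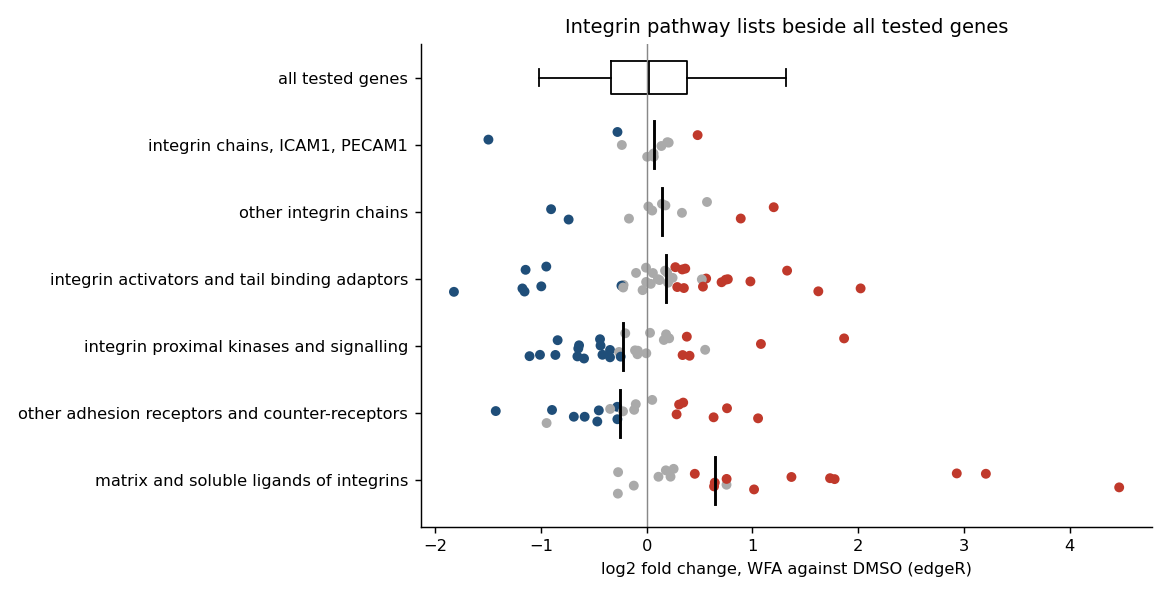
Log2 fold changes of WFA against DMSO (horizontal axis) for the 10 genes and the 5 lists, 1 point per tested gene, beside all tested genes. The box spans the quartiles of all tested genes and its whiskers the 5th to 95th percentile, black bars are list medians, and red and blue points were called higher and lower by edgeR. No matrix or soluble ligand is blue, and 14 of 30 kinases and signalling genes are.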

How the data were processed

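RNA was extracted from THP1 cells, libraries were made with a kit that does not mark strand (TruSeq RNA v2), and the submitters' processing notes name bcl2fastq 2.19, Trimmomatic, Bowtie2, Picard, featureCounts, DESeq2 and the build hg38. The annotation and the counting settings are not given in the sources used here. The authors deposited whole-number read counts per gene symbol, which were used as deposited. Their scaled values (6 columns) and the columns of their own comparison (fold changes and p-values) were not used. No count was recorded for 8157 of 26485 genes, and 2 gene names are repeated.

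Counts were tested with edgeR 4.0.16 in R 4.3.3 (TMM, filterByExpr with a minimum count of 10, quasi-likelihood test, Benjamini-Hochberg adjustment over 12854 genes, threshold 0.05). Alternatives used DESeq2 1.42.0, other scalings, no filter, a replicate block and each library left out. The fits were also run on simulated counts with no replicate effect and far fewer changed genes than were called here. That run cannot test the paired fit or the scaling under such wide change, and its outcome is not given. The members and gene lists were chosen with earlier results of these data known. Beside the 10 members, the genes named by rule are all tested integrin chains and, on each other list, up to 3 called genes with the smallest p in the majority direction and up to 2 in the other. Other genes named, such as TLN1, FERMT3, RASGRP2, APBB1IP and CD14, were picked outside this rule.

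Replicate numbers come from the labels, and each stands for an independent experiment. Same-numbered libraries correlated in their deviations from the group means across genes (r = 0.25, 0.38 and 0.27), against -0.30 to 0.02 for other pairs. Libraries of a group differed beyond sampling noise (chi-square per gene 5.67 to 10.4). Total counts per library were 11006035 to 13872810, and the errors given include the spread between replicates. Transcript lengths and coordinates are from GENCODE 29, and 97.6% of counts were on genes with a length. The order of per-length levels depends on the transcript chosen.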

Additional observations from a re-analysis of the deposited data

How the results depend on the processing

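ITGA4 kept its direction and its call under every alternative run, with log2 fold changes between -1.58 and -1.40 and an edgeR or DESeq2 adjusted p of at most 1.38e-06, and ITGAX kept both with 0.36 to 0.62 and at most 0.0294. With the replicate block, 2 members in place of 1 were called higher and of the other genes named by rule the paired fit also called ITGA2 (adjusted p = 0.0430 from edgeR), while no further call among them changed. Leaving out 1 library each gave 1 to 3 members called lower. ITGAM turned to -0.017 with DESeq2's Wald test, -0.0093 with its size factors, -0.083 with total counts and -0.0089 without the filter. With total counts, ITGB2 turned to -0.017, ITGB1 to -0.020, ITGA7 to -0.069 and ITGA9 to -0.033, and ITGA7 was -0.0054 with DESeq2. Total counts moved the median of all genes by -0.085. Without 1 library, log2 values ranged from -0.17 to 0.18 for ITGAM, -0.0019 to 0.12 for ITGB2, -0.18 to 0.47 for ICAM1, -0.52 to 0.060 for ITGA1, -0.14 to 0.17 for ITGA7 and -0.074 to 0.23 for ITGA9. The ratios ranged from -0.26 to 0.14 for ITGAM to ITGB2, -0.61 to 0.027 for ITGAL to ITGAM and -0.36 to 0.42 for ICAM1 to ITGB2. None of the reversed fold changes passed the threshold, and the cause was not tested.

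ICAM1 had 35 to 94 counts per library. With 3 libraries per group the exact tests cannot pass 0.05.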
